A study of Mus musculus with 61 samples.

Results

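The comparison set mouse embryos collected at 90-96hpi (hours post insemination) against unfertilised eggs arrested at metaphase II (MII oocytes). It used 6 of the 61 samples of the series, 3 libraries a group, chosen by the sample titles, and the 24551 complete gene records of the read count table, of which 16234 had enough reads to be tested. The embryos were wild type by label, made by in vitro fertilisation of eggs from superovulated females, and held for the last 6 h in KSOM medium with 2 mM 4-thiouridine (4SU), a uridine analog that new RNA takes up. The oocytes were also labelled wild type and 4SU labelled. The design text gives 10 embryos per library, so each 90-96hpi library pooled embryos. The number of oocytes per library was not stated separately.

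A mouse egg is transcriptionally quiet and lives on RNA and protein stored during growth. After fertilisation the stored RNA is removed, the embryonic genome is switched on, and by the hours sampled here cultured embryos usually form a blastocyst: a hollow ball whose outer epithelium, the trophectoderm, pumps fluid around an inner cell mass that holds the epiblast and the primitive endoderm. The labels give the hours and not the stage, so the groups were first checked against markers. Gdf9, a growth factor that the oocyte sends to its follicle cells, was at 0.332, 3.81 and 6.03 CPM in the 90-96hpi libraries, against 5242, 4975 and 5055 CPM in the MII libraries. Krt8, a keratin of simple epithelia and of trophectoderm, was at 3538, 2016 and 2261 CPM in the 90-96hpi libraries, against 0, 0.771 and 0 CPM in the MII libraries. Nanog, a transcription factor of the inner cell mass, was at 139, 138 and 148 CPM in the 90-96hpi libraries, against 0.106, 0.881 and 0 CPM in the MII libraries. Each of these markers put all libraries of a group on the side that its label gives. CPM (counts per unit of 1000000 counted reads) were scaled by the trimmed mean of M values (TMM).

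The 90-96hpi libraries held 8302778, 7452057 and 7395193 counted reads, and the MII libraries 11347226, 11596668 and 11325715. Log levels correlated across genes at 0.977 to 0.987 among embryo libraries, at 0.984 to 0.988 among oocyte libraries and at 0.438 to 0.508 between groups. The labels do not say whether replicates came from separate cultures or females, so the p-values describe only how much these libraries vary, and part of that may be technical. The embryo libraries were not alike in what they held of egg RNA. Of 46 egg genes from the lists below that were at least 4-fold lower at 90-96hpi, 35 were highest in embryo replicate 3 and 39 were lowest in embryo replicate 1. Of 703 named genes and list members, leaving out 1 library moved the fold change of 205 by over 1.5 times, farthest without MII replicate 2 for 83 of them, and the values are given below beside the genes concerned. The RNA was primed with oligo-dT and no measure of RNA per embryo was used, so levels are relative, and fewer molecules and shorter poly(A) tails cannot be told apart. In pooled whole embryos, fewer cells of a type and less RNA per cell cannot be told apart either.

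Most measured genes differed between 90-96hpi embryo and egg. With edgeR's quasi-likelihood test and an adjusted p threshold of 0.05, 13149 of 16234 genes (81.0%) differed, of which 6912 (42.6% of those tested) were higher and 6237 (38.4%) lower in the embryos. At least 4-fold differences made up most of these calls, with 5435 genes (33.5%) higher and 4456 (27.4%) lower. At least 16-fold differences were called for 3497 genes with more and 2464 with less RNA at 90-96hpi. The libraries of both groups did not overlap for 13027 genes (80.2%). The median log2 fold change over all genes tested was 0.27, and the median absolute value was 2.92. Scaling by total counts alone moved the median by 0.53, to 0.79, so small differences below are relative to the TMM scale.

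Different genes took the reads in each group. The 5435 genes that were at least 4-fold higher took 55.2, 53.5 and 53.1% of all counted reads in the 90-96hpi libraries, against 2.09, 2.18 and 1.98% in the MII libraries. The 4456 genes that were at least 4-fold lower took 5.89, 6.73 and 7.06% in embryos, against 65.9, 65.8 and 66.8% in oocytes. Genes with at least 1 CPM in every library numbered 10961 at 90-96hpi and 9962 at MII, and 7828 met this in both.

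**Figure D1:**
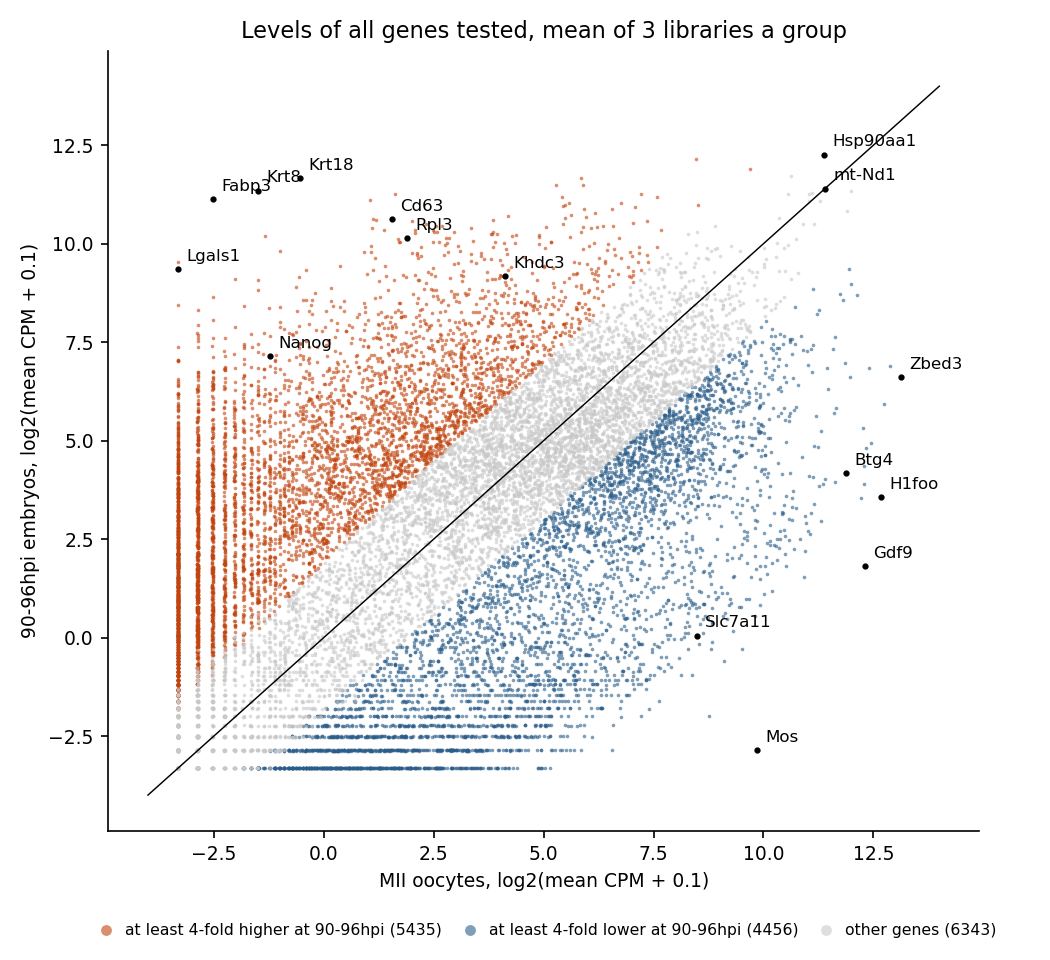
Mean level of each gene tested in 90-96hpi embryos (vertical axis) against MII oocytes (horizontal axis), both as log2 of the mean CPM of 3 libraries plus 0.1. Orange points are the 5435 genes at least 4-fold higher and blue points the 4456 genes at least 4-fold lower at 90-96hpi, grey points are the other genes, and the line marks equal levels. Krt8, Krt18, Fabp3 and Lgals1 lie at the upper left and Mos and Gdf9 at the lower right, while mt-Nd1 lies on the line.

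The genes that took the most reads in each group were of different kinds. At 90-96hpi they were the chaperones Hsp90aa1 (4921 ± 781 CPM at 90-96hpi and 2665 ± 175 CPM at MII), Hspa8 (4556 ± 1345 CPM at 90-96hpi and 356 ± 15.7 CPM at MII) and Hsp90ab1 (3798 ± 429.5 CPM at 90-96hpi and 826 ± 108 CPM at MII), then the translation factors Eif2s2 and Eef1a1, Krt18, Actb, Ptma, the mitochondrial transcript mt-Nd1 and Krt8 (SD, n = 3 for these and all means below). In MII oocytes the first was Zbed3, a component of the cytoplasmic lattices of the egg cortex (97.1 ± 87.8 CPM at 90-96hpi and 8906 ± 683 CPM at MII). It was followed by Spin1, a reader of histone methylation (119.5 ± 74.7 CPM at 90-96hpi and 7553 ± 396 CPM at MII), Tcl1, a coactivator of the kinase AKT (60.8 ± 53.8 CPM at 90-96hpi and 6801 ± 247 CPM at MII), and the oocyte linker histone H1foo (11.7 ± 9.32 CPM at 90-96hpi and 6533 ± 283 CPM at MII). Bcl2l10, Rdx, E330034G19Rik, Gdf9, Bpgm and E330021D16Rik completed the 10. The 10 leading egg genes averaged between 3.39 and 119.5 CPM in embryos. Among the leading embryo genes, Hsp90aa1, Eif2s2 and mt-Nd1 were plentiful in eggs as well, and Hsp90aa1 (log2 fold change 0.88, adjusted p = 1.18e-08) and Eif2s2 (log2 fold change 1.10, adjusted p = 2.06e-12) were higher at 90-96hpi.

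Among genes with more than 10 reads over the MII libraries, the highest fold change belonged to Krt18, the partner of Krt8 in simple-epithelial filaments. It was at 4587, 2529 and 2640 CPM in the 90-96hpi libraries, against 0, 1.65 and 0.111 CPM in the MII libraries (log2 fold change 12.42, SE 0.65, adjusted p = 4.61e-13). Most of its few oocyte reads lay in MII replicate 2, as did those of Krt8. Next came Tagln2, an actin-binding protein (1097, 751 and 861 CPM in embryos and 0.106, 1.1 and 0 CPM in oocytes; log2 fold change 11.10, adjusted p = 2.29e-18), and Calcoco2, an autophagy receptor (1889, 2463 and 2238 CPM in embryos and 0.212, 5.61 and 0.111 CPM in oocytes; log2 fold change 10.12, adjusted p = 2.84e-11). The other 9 of the first 12 were the prostaglandin reductase Ptgr1 (9.91), the cysteine protease inhibitor Cstb (9.90), Pramel5 (9.75), the glutathione transferase Gsto1 (9.69), the arginine-derivative hydrolase Ddah1 (9.68), the homeobox gene Crxos (9.57), the ganglioside activator Gm2a (9.48), the metal-binding Mt1 (9.37) and Pramel7 (9.28), with the log2 fold change in brackets. The Pramel genes have near-identical copies that share reads, so their single values are uncertain. Leaving out MII replicate 2 gave a log2 fold change of 10.59 for Ptgr1, 10.60 for Cstb, 11.97 for Gsto1, 10.63 for Ddah1, 11.33 for Crxos and 10.00 for Mt1. Krt18, Tagln2, Calcoco2, Pramel5 and Pramel7 had at most 3 oocyte reads left without MII replicate 2, so no fold is given there.

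A further 2294 genes with a plain symbol were called higher at 90-96hpi with at most 10 reads over all MII libraries. The 10 with the highest mean CPM among them were Krt8, Fabp3, Lgals1, Bmyc, Sdc4, Klf5, S100a11, S100a10, Cryab and Capg. Fabp3, a fatty acid carrier, was at 2523, 2179 and 2030 CPM in the 90-96hpi libraries, against 0, 0.22 and 0 CPM in the MII libraries. Lgals1, the lectin galectin-1, was at 614, 731 and 607 CPM in the 90-96hpi libraries, against no read in any MII library. With no read in any oocyte library, Lgals1 was at least 1991-fold higher in embryos against a floor of 3 reads per library, and S100a10, a calcium-binding-family partner of annexin, at least 1072-fold higher. Klf5, a transcription factor needed for trophectoderm in mouse, was at 413, 463 and 489.5 CPM in the 90-96hpi libraries, against 0, 0.661 and 0.111 CPM in the MII libraries (log2 fold change 10.73, SE 0.49, adjusted p = 1.33e-18). Klf5 had at most 3 oocyte reads left without MII replicate 2, so no fold is given there.

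The sharpest fall among genes that kept more than 10 reads at 90-96hpi was that of Gdf9 (log2 fold change -10.55, SE 0.60, adjusted p = 3.34e-13), whose values are given above. The Notch ligand Jag1 followed (0.111, 0.784 and 1.25 CPM in embryos and 709, 748 and 738 CPM in oocytes; log2 fold change -9.98, adjusted p = 4.56e-23), then Erich5 (0.566 ± 0.569 CPM at 90-96hpi and 550.3 ± 42.9 CPM at MII) and the BMP receptor gene Bmpr1b (0.415 ± 0.433 CPM at 90-96hpi and 331 ± 19.7 CPM at MII). The rest of the 12 were Obox2 (-9.45), the G-protein regulator Rgs17 (-9.37), Csmd3 (-9.35), the zinc-finger gene Zfp957 (-9.28), Zar1 (-9.27), Lrrc17 (-9.20), H1foo (-9.12) and the carboxypeptidase Cpa1 (-9.10), each with its log2 fold change. Obox genes also have near-identical copies. Another 1225 genes with a plain symbol were called lower with at most 10 reads over the embryo libraries. Mos, the kinase that holds the egg at metaphase II, led them with 0, 0 and 0.114 CPM in the 90-96hpi libraries, against 1037, 905 and 841 CPM in the MII libraries (adjusted p = 2.51e-13), and only 1 read was counted in all embryo libraries. Astl, the protease ovastacin that cleaves the egg coat after fertilisation, was at 0, 0.112 and 0.342 CPM in the 90-96hpi libraries, against 529.6, 421 and 355 CPM in the MII libraries (log2 fold change -11.39, adjusted p = 1.83e-15). Kcnh1, Stbd1, Smoc2, Pcdh9, Nlrp2, Mei4, Cxcr3 and Lama2 made up the other 8, each with 4 to 10 reads in all at 90-96hpi and 147 to 198 CPM in oocytes. Leaving out 90-96hpi replicate 3 gave a log2 fold change of -11.26 for Gdf9, -10.64 for Jag1, -10.69 for Obox2, -10.26 for Rgs17, -10.20 for Csmd3, -10.60 for Zfp957, -10.27 for Zar1, -10.17 for Lrrc17 and -10.35 for Cpa1. Astl had at most 3 embryo reads left without 90-96hpi replicate 3, so no fold is given there.

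RNA for the egg coat and its sperm receptors was mostly lower at 90-96hpi, and the exceptions encode membrane proteins that many cells make. The coat itself was not measured. Of 7 genes for the zona pellucida and sperm binding, 2 were higher and 5 lower at 90-96hpi (median log2 fold change -6.50, beside 0.27 over all genes). Zp3, a glycoprotein of the zona, was at 0.776, 1.01 and 2.05 CPM in the 90-96hpi libraries, against 171, 155 and 156 CPM in the MII libraries (log2 fold change -6.97, SE 0.23, adjusted p = 8.82e-25). Zp1 had 0, 0.224 and 1.03 CPM in embryos and 108, 102 and 118 CPM in oocytes (log2 fold change -8.01, adjusted p = 9.39e-17), and Izumo1r, the egg receptor for sperm IZUMO1, had a log2 fold change of -5.94. The tetraspanin Cd9, which eggs need to fuse with sperm, went the other way with 1480, 1203 and 1121 CPM in the 90-96hpi libraries, against 12.95, 18.2 and 11.6 CPM in the MII libraries (log2 fold change 6.48, SE 0.19, adjusted p = 3.58e-26). Its relative Cd81 also rose (205, 111 and 141 CPM in embryos and 3.4, 6.72 and 3.54 CPM in oocytes; log2 fold change 5.06, adjusted p = 7.84e-13). The 2 tetraspanins set the list's sum, at 1687, 1316 and 1268 CPM in the 90-96hpi libraries, against 952, 855 and 802 CPM in the MII libraries. Zp1 and Izumo1r had at most 3 embryo reads left without 90-96hpi replicate 3, so no fold is given there.

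The subcortical maternal complex and the cytoplasmic lattices, egg structures that early cleavage needs, had 7 of 8 transcripts lower at 90-96hpi (median log2 fold change -6.68). Their sum was 701, 843 and 918 CPM in the 90-96hpi libraries, against 11230, 11710 and 12700 CPM in the MII libraries. Nlrp5, a core subunit, was at 0, 3.14 and 3.3 CPM in the 90-96hpi libraries, against 484, 456 and 488 CPM in the MII libraries (log2 fold change -7.79, SE 0.36, adjusted p = 6.21e-17), with no read in embryo replicate 1. Padi6, a lattice protein, was at 2.55, 4.03 and 5.81 CPM in the 90-96hpi libraries, against 467, 474 and 483 CPM in the MII libraries (log2 fold change -6.84, adjusted p = 3.99e-26). Zbed3 was at 2.44, 113 and 176 CPM in the 90-96hpi libraries, against 8329, 8730 and 9659 CPM in the MII libraries (log2 fold change -6.52, adjusted p = 7.6e-06). Its embryo libraries spread widely and, like 80.2% of all genes tested, it did not overlap between groups. Ooep fell less (116, 131 and 119.9 CPM in embryos and 283, 306 and 238 CPM in oocytes; log2 fold change -1.17, adjusted p = 4.94e-07), and Khdc3, a KH-domain member of the complex, was higher in every embryo library (574, 575 and 589.5 CPM in embryos and 17.2, 15.5 and 18.9 CPM in oocytes; log2 fold change 5.07, adjusted p = 2.25e-19). Of 8 tested NLRP genes outside the complex none was higher, 7 lower and 1 not called (median -7.82), with a sum of 38.5, 58.7 and 109 CPM in the 90-96hpi libraries, against 6658, 7504 and 7706 CPM in the MII libraries. Nlrp4c was the one without a call. The Nlrp4 and Nlrp9 copies share sequence, so single values in this family are uncertain. Leaving out 90-96hpi replicate 1 gave a log2 fold change of -7.18 for Nlrp5. The log2 fold change without 90-96hpi replicate 3 was -7.27 for Zbed3.

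Oocyte growth and transcription factors followed the same course. Of 11 tested, none was higher, 9 lower and 2 not called (median log2 fold change -7.23). Their sum was 4.99, 44.4 and 91.7 CPM in the 90-96hpi libraries, against 10560, 10600 and 10730 CPM in the MII libraries, an order from replicate to replicate that Gdf9 and Bmp15 share. Bmp15, the X-linked partner of Gdf9, was at 0.111, 16.8 and 36.1 CPM in the 90-96hpi libraries, against 1334, 1362 and 1420 CPM in the MII libraries (log2 fold change -6.28, SE 0.90, adjusted p = 1.66e-06). Nobox (-7.41) and Lhx8 (-6.42), homeobox factors of the growing oocyte, and Kit, the stem cell factor receptor (-7.23), were lower too, while Figla and Sohlh1 were not called (0.711 ± 0.0742 CPM at 90-96hpi and 1.94 ± 1.3 CPM at MII for Figla). Without 90-96hpi replicate 3, the log2 fold change was -7.35 for Bmp15, -8.93 for Nobox, -7.33 for Lhx8 and -8.49 for Kit.

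The promoters of Zp3 and Bmp15 are shown as examples of genes that leave the transcriptome. Both windows are from RefSeq on GRCm38.p6 and run from 250 bases before the start to 50 after it, 5′ to 3′ on the gene's strand. Capitals mark every match on either strand to CATTCC (the TEAD core), CACGTG (the E-box that oocyte and lysosomal basic helix-loop-helix factors can bind), TATAAA and CCAAT. The Zp3 window (chr5:135979855-135980154, plus strand) holds 1 CACGTG. The Bmp15 window (chrX:6320675-6320974, minus strand) holds 2 CATTCC, 1 TATAAA and 1 CCAAT.
Zp3: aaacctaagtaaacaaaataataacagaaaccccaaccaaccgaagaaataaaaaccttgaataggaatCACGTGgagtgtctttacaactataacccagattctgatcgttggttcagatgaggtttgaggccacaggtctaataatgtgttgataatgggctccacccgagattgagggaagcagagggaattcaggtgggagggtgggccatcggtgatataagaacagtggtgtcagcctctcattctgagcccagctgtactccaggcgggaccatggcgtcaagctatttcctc
Bmp15: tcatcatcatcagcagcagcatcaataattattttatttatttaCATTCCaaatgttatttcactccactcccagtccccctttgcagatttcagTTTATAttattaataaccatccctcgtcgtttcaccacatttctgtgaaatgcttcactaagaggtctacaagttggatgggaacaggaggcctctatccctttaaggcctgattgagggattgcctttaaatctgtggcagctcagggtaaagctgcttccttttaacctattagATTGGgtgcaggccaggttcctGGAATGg
Over the 27025 promoters read from the RefSeq table, which were not all of its promoters, 14.6% hold CATTCC, 7.24% CACGTG, 14.2% TATAAA and 37.9% CCAAT. Among the 3177 matched genes that were at least 4-fold lower at 90-96hpi the shares were 12.0, 8.56, 9.76 and 37.6%, and among the 11966 matched genes tested 12.5, 9.59, 8.27 and 39.3%. A match describes letters and not a bound site.

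Genes that hold the egg at metaphase and start it on activation were lower as a rule, with Cdk1 the exception. Of 17 tested, 1 was higher, 15 lower and 1 not called (median log2 fold change -3.67). Beside Mos, Fbxo43, the inhibitor of the anaphase-promoting complex (0.983 ± 1.1 CPM at 90-96hpi and 396 ± 28.02 CPM at MII; log2 fold change -8.65, adjusted p = 8.5e-16), Wee2, the oocyte kinase that restrains CDK1 (8.01 ± 8.59 CPM at 90-96hpi and 1541 ± 139 CPM at MII; log2 fold change -7.59, adjusted p = 2.95e-09), and Itpr1, the calcium channel of egg activation (-6.48), all fell. Cdk1, the mitotic kinase itself, rose, with 446, 353 and 336 CPM in the 90-96hpi libraries, against 5.1, 6.72 and 7.4 CPM in the MII libraries (log2 fold change 5.88, SE 0.19, adjusted p = 3.28e-25). Its cyclin Ccnb1 was lower but plentiful (846, 536 and 593 CPM in embryos and 3520, 3781 and 4557 CPM in oocytes; log2 fold change -2.59, adjusted p = 1.19e-18). The spindle checkpoint kinase Bub1b was lower (-5.57). Leaving out 90-96hpi replicate 3 gave a log2 fold change of -9.95 for Fbxo43 and -8.80 for Wee2.

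Factors that store and degrade maternal RNA were divided as well. Of 16 tested, 4 were higher, 11 lower and 1 not called (25.0% and 68.75%, beside 42.6% and 38.4% of all genes; median log2 fold change -3.49). Btg4, the adaptor that brings the CCR4-NOT deadenylase to maternal RNA, was at 0.222, 17.5 and 35.98 CPM in the 90-96hpi libraries, against 3487, 3866 and 3932 CPM in the MII libraries (log2 fold change -7.72, SE 0.89, adjusted p = 6.93e-08). The RNA-binding proteins Dazl (-7.96), Lsm14b (-7.14) and Cpeb1 (-6.95) and the deadenylase subunits Cnot6l (-5.48) and Cnot7 (-4.03) were lower. Ythdf2, a reader of methylated adenosine, was higher (274, 186 and 198 CPM in embryos and 80.9, 89.1 and 77.1 CPM in oocytes; log2 fold change 1.41, adjusted p = 1.6e-11), as were the terminal uridylyltransferase Zcchc11 (3.28) and the RNA-destabilising Zfp36l2 (2.98). The log2 fold change without 90-96hpi replicate 3 was -8.74 for Btg4.

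**Figure D2:**
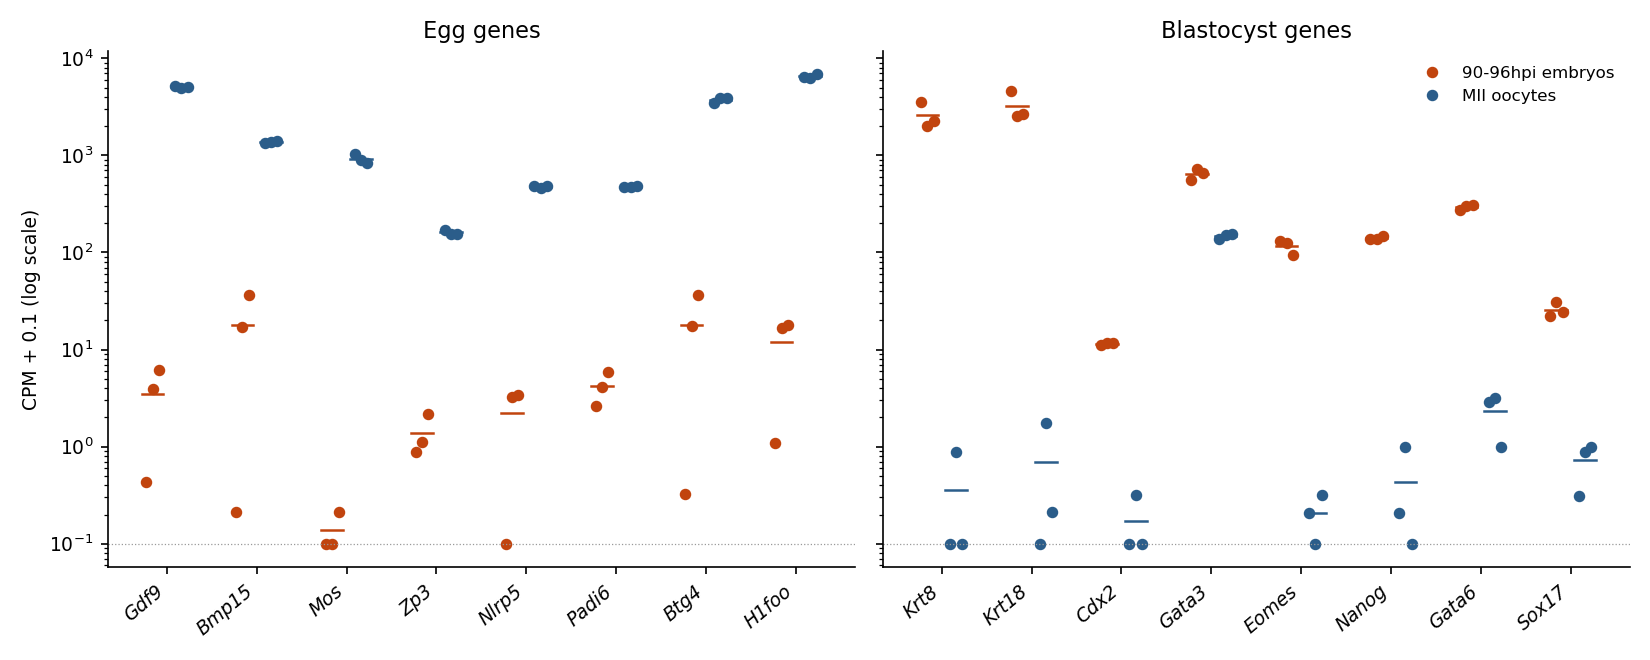
CPM plus 0.1 on a log scale for 8 egg genes (left) and 8 blastocyst genes (right) in each library. Points are single libraries and bars are means, with 90-96hpi embryos in orange left of MII oocytes in blue and a dotted line at 0 CPM. The genes shown, like 80.2% of all genes tested, did not overlap between groups, and Bmp15 at 90-96hpi ran between 0.111 and 36.1 CPM over the 3 embryo libraries.

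Chromatin genes exchanged members. The linker histone H1foo, made by oocytes, was at 0.997, 16.6 and 17.7 CPM in the 90-96hpi libraries, against 6419, 6325 and 6856 CPM in the MII libraries (log2 fold change -9.12, SE 0.87, adjusted p = 3.15e-09). The somatic linker histone Hist1h1b was at 31.4, 52.7 and 36.9 CPM in the 90-96hpi libraries, against no read in any MII library (adjusted p = 2.05e-12), and Hist1h1e at 44.9, 67.8 and 47.5 CPM in the 90-96hpi libraries, against 1.59, 1.43 and 0 CPM in the MII libraries (log2 fold change 5.70, adjusted p = 1.47e-11). Like 80.2% of all genes tested, these linker histones did not overlap between the libraries of both groups. Over 18 linker histones, variants and histone chaperones 13 were higher, 4 lower and 1 not called (median log2 fold change 2.21). These shares were 72.2% and 22.2%, beside 42.6% and 38.4% of all genes. Their sum, H1foo included, was lower in embryos, at 5894, 5111 and 5253 CPM, against 11140, 11500 and 12220 CPM in the MII libraries. The variant H2afz (4.10) was higher and the oocyte chaperone Npm2 (-8.33) lower. Oligo-dT priming reads only those histone transcripts that carry a poly(A) tail, and histone copies share sequence. Without MII replicate 1, the log2 fold change was 6.30 for Hist1h1e. Leaving out 90-96hpi replicate 3 gave a log2 fold change of -9.31 for Npm2.

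Genes of DNA methylation and demethylation moved in both directions, with 6 higher and 8 lower at 90-96hpi among 14 (42.9% and 57.1%, beside 42.6% and 38.4% of all genes). Dnmt1, the maintenance methyltransferase, was at 39.8, 59.5 and 43.8 CPM in the 90-96hpi libraries, against 857, 906 and 868 CPM in the MII libraries (log2 fold change -4.20, SE 0.17, adjusted p = 4.79e-22). The de novo enzyme Dnmt3b (176 ± 14.4 CPM at 90-96hpi and 22.7 ± 7.19 CPM at MII; log2 fold change 2.95, adjusted p = 5.07e-13) and its cofactor Dnmt3l (139 ± 10.4 CPM at 90-96hpi and 17.8 ± 2.76 CPM at MII; log2 fold change 2.96, adjusted p = 1.94e-18) were higher. Among the dioxygenases that oxidise 5-methylcytosine, Tet3 was at 4.99, 8.74 and 9.56 CPM in the 90-96hpi libraries, against 988, 925 and 758 CPM in the MII libraries (log2 fold change -6.84, SE 0.29, adjusted p = 2.16e-18), whereas Tet1 (71.02 ± 11.2 CPM at 90-96hpi and 13.5 ± 0.468 CPM at MII; log2 fold change 2.40, adjusted p = 4.71e-14) and Tet2 (146 ± 19.9 CPM at 90-96hpi and 7.8 ± 2.78 CPM at MII; log2 fold change 4.23, adjusted p = 1.54e-14) were higher at 90-96hpi. Tdg, the glycosylase that removes oxidised cytosines, had 82.7, 57.6 and 61.6 CPM in embryos and no read in any oocyte library (adjusted p = 2.81e-14). Zfp57, which protects imprints, was lower (-4.63). The call for Dppa3 (log2 fold change -0.22) changed direction to 0.30 with total count scaling.

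Trophectoderm genes were on. Of 15 transcription factors of that lineage 11 were higher, 1 lower and 3 not called (median log2 fold change 4.90), and their sum was 2714, 3199 and 2902 CPM in the 90-96hpi libraries, against 239, 254 and 238 CPM in the MII libraries. Cdx2, the factor that sets trophectoderm fate in mouse, was at 10.97, 11.5 and 11.5 CPM in the 90-96hpi libraries, against 0, 0.22 and 0 CPM in the MII libraries (adjusted p = 3.44e-06). Eomes, a T-box factor, was at 131, 126 and 94.95 CPM in the 90-96hpi libraries, against 0.106, 0 and 0.221 CPM in the MII libraries. Tead4, the DNA-binding partner of YAP1, was at 84.1, 84.03 and 71.2 CPM in the 90-96hpi libraries, against 0.106, 0.22 and 0 CPM in the MII libraries, and both genes had at most 3 oocyte reads in all. Gata3 had a clear level in the egg and a higher one at 90-96hpi (553, 726 and 666 CPM in embryos and 136, 149.9 and 157 CPM in oocytes; log2 fold change 2.14, SE 0.18, adjusted p = 3.54e-13). Id2, an inhibitor of basic helix-loop-helix factors, rose as well (1227, 1443 and 1243 CPM in embryos and 4.78, 4.84 and 6.85 CPM in oocytes; log2 fold change 7.89, adjusted p = 7.14e-21). Ets2 was lower (-2.19), and Hand1, Dlx3 and Arid3a were not called. Hand1 averaged 38.6 CPM at 30-36hpi, 172 at 48-54hpi, 19.3 at 70-76hpi and 0.34 at 90-96hpi, so its peak fell between both ends of the comparison.

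RNA for epithelial filaments and desmosomes was nearly absent from the egg. Of 13 tested keratin and desmosome genes 11 were higher, none lower and 2 not called (median log2 fold change 6.12), with a sum of 8834, 5120 and 5402 CPM in the 90-96hpi libraries, against 15.8, 18.7 and 19.6 CPM in the MII libraries. Embryo replicate 1 held the most. For Krt8 the change was 13.25 on the log2 scale (adjusted p = 9.49e-15), from 7 reads in all oocyte libraries. Krt19 had 20.4, 18.6 and 19.4 CPM in embryos and no read in any oocyte library. The desmosomal cadherin Dsg2 likewise had 127, 150.2 and 121 CPM in embryos and no read in any oocyte library. Desmoplakin, Dsp, which ties keratin to the junction, was at 226, 140.1 and 129 CPM in the 90-96hpi libraries, against 2.97, 1.65 and 2.43 CPM in the MII libraries (log2 fold change 6.12, adjusted p = 9.35e-16). Krt8 had at most 3 oocyte reads left without MII replicate 2, so no fold is given there.

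The promoters of Krt8 and Krt18, neighbours on chromosome 15 that rose together, are shown with the same marks as above. In the Krt8 window (chr15:102004293-102004592, minus strand) 2 TATAAA matches on opposite strands overlap, a motif held by 8.21% of the 3997 matched genes that were at least 4-fold higher. The Krt18 window (chr15:102027966-102028265, plus strand) has none of the motifs searched.
Krt8: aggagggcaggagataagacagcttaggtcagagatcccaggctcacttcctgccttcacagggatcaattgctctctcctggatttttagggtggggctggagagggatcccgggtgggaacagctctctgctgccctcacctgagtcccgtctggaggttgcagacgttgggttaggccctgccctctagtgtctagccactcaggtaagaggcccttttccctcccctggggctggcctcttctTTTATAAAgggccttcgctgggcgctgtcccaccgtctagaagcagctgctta
Krt18: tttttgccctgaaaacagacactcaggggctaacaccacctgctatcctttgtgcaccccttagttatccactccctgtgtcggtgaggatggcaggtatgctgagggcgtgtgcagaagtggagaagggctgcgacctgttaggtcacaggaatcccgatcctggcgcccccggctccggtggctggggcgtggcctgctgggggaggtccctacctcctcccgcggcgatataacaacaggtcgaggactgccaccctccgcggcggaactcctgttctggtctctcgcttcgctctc
The windows have no motif of the 4 searched in common.

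Junction and cavity genes moved in both directions, with claudins higher at 90-96hpi and water channels divided. Of 25 tested, 15 were higher, 9 lower and 1 not called (60.0% and 36.0%, beside 42.6% and 38.4% of all genes; median log2 fold change 2.62). The share of lower members was thus near that of all genes. Epcam, an epithelial adhesion protein, was at 1426, 1177 and 1086 CPM in the 90-96hpi libraries, against 4.25, 4.62 and 3.54 CPM in the MII libraries (log2 fold change 8.21, SE 0.23, adjusted p = 1.25e-26). Cdh1, E-cadherin, was present in both groups and slightly higher at 90-96hpi (375, 455 and 339 CPM in embryos and 268, 268 and 264 CPM in oocytes; log2 fold change 0.55, adjusted p = 0.00057). The claudin Cldn6 (99.7, 91.8 and 101 CPM in embryos and 0, 0.11 and 0 CPM in oocytes) and the water channel Aqp8 (23.2, 12.8 and 13.9 CPM in embryos and no read in any oocyte library) had at most 3 oocyte reads in all, and the water channel Aqp3 rose too (79.1, 51.99 and 79.4 CPM in embryos and 0, 1.1 and 0 CPM in oocytes; log2 fold change 7.54, adjusted p = 8.81e-13). The water channel Aqp9 was lower (47.3, 52.2 and 54.2 CPM in embryos and 112, 105 and 122 CPM in oocytes; log2 fold change -1.14, adjusted p = 1.41e-08). Of the pump that drives cavity filling, the subunit Atp1b1 was higher (173 ± 15.8 CPM at 90-96hpi and 28.1 ± 1.66 CPM at MII; log2 fold change 2.62, adjusted p = 1.36e-15) while Atp1b3 was lower (86.8 ± 12.4 CPM at 90-96hpi and 528 ± 15.9 CPM at MII; log2 fold change -2.61, adjusted p = 6.02e-21). With total count scaling 5 and not 9 members were lower, and Tjp1 and Prkci, each slightly lower here, changed sign to 0.00827 and 0.0546. Aqp3 had at most 3 oocyte reads left without MII replicate 2, so no fold is given there.

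Hippo signalling, which in mouse keeps YAP1 out of inner nuclei and lets it act with TEAD4 in outer cells, had members that moved in both directions. Of 17 tested, 10 were higher, 6 lower and 1 not called (58.8% and 35.3%, beside 42.6% and 38.4% of all genes; median log2 fold change 1.43). Yap1 was at 46.9, 43.8 and 41.2 CPM in the 90-96hpi libraries, against 128, 123 and 80.9 CPM in the MII libraries (log2 fold change -1.33, SE 0.16, adjusted p = 4.31e-09), and its relative Wwtr1 (TAZ) at 108, 92.9 and 87.4 CPM in the 90-96hpi libraries, against 1.7, 2.64 and 4.53 CPM in the MII libraries (log2 fold change 5.02, SE 0.32, adjusted p = 1.43e-16). Among the kinases, Lats1 was lower (6.51 ± 0.782 CPM at 90-96hpi and 21.4 ± 3.97 CPM at MII; log2 fold change -1.72, adjusted p = 6.17e-07) and Lats2 higher (24.7 ± 3.77 CPM at 90-96hpi and 1.57 ± 0.9 CPM at MII; log2 fold change 3.96, adjusted p = 3.02e-09). Amotl2, an angiomotin that holds YAP1 at junctions, was at 148, 212 and 226 CPM in the 90-96hpi libraries, against 0, 0.22 and 0 CPM in the MII libraries. The YAP1 target genes Cyr61 (6.67) and Ctgf (6.65, 4.59 and 5.35 CPM in embryos and no read in any oocyte library) were both higher. Cyr61 had at most 3 oocyte reads left without MII replicate 2, so no fold is given there.

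Promoters of Amotl2 and Yap1 are given because both hold the TEAD core CATTCC, marked in capitals with the other motifs, and their RNA moved in opposite directions. CATTCC was in 7 of 14 matched Hippo promoters (50.0%), of which 4 belonged to genes that were higher, 2 to genes that were lower and 1 to a gene that was not tested. Without it, 3 were higher, 3 lower and 1 not called. The Amotl2 window is chr9:102717554-102717853 (plus strand) and the Yap1 window chr9:8004547-8004846 (minus strand), which also holds 1 CACGTG.
Amotl2: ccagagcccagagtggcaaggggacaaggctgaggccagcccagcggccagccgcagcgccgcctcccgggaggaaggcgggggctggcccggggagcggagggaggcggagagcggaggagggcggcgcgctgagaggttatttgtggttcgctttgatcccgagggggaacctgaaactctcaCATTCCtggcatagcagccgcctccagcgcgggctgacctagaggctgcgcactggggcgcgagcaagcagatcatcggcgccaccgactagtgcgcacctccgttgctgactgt
Yap1: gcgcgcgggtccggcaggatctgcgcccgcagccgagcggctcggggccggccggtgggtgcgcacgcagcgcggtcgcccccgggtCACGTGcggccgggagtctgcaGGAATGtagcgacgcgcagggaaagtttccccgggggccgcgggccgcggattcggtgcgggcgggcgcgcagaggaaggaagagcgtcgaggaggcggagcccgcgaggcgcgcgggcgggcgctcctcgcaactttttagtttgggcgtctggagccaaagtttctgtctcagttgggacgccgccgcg
The letters were present in genes of either direction.

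The inner cell mass programme was on, from different starting points. Of 21 genes of pluripotency 19 were higher, 1 lower and 1 not called (median log2 fold change 5.56). Pou5f1 (OCT4) was in eggs and rose modestly (46.8, 42.9 and 50.8 CPM in embryos and 33.3, 22.4 and 33.2 CPM in oocytes; log2 fold change 0.66, SE 0.21, adjusted p = 0.00515). Nanog, given above, had a log2 fold change of 8.70 (adjusted p = 6.35e-13), and its mean at 70-76hpi was 314.5 CPM, above the mean of 141 CPM at 90-96hpi. Sox2 was at 14.2, 11.99 and 11.6 CPM at 90-96hpi, against 0.955, 1.1 and 0.884 CPM at MII (log2 fold change 3.67, adjusted p = 1.09e-06). Fgf4, the signal by which epiblast drives primitive endoderm in mouse, had 8.86, 5.71 and 5.01 CPM in embryos and no read in any oocyte library, and Tdgf1, a Nodal co-receptor, 70.8, 62.1 and 63.5 CPM in embryos and 0, 0.11 and 0 CPM in oocytes. Zfp42 (REX1) had a log2 fold change of 8.01 and Dppa5a one of 5.52. Sall4 was lower (181 ± 21.4 CPM at 90-96hpi and 690.1 ± 61.7 CPM at MII; log2 fold change -1.93, adjusted p = 5.35e-14) and Esrrb was not called (19.2 ± 2.56 CPM at 90-96hpi and 18.3 ± 7.46 CPM at MII). The log2 fold change without MII replicate 2 was 8.85 for Zfp42. Nanog had at most 3 oocyte reads left without MII replicate 2, so no fold is given there.

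Primitive endoderm genes were likewise on, with their basement membrane. Of 22 tested, 18 were higher, 1 lower and 3 not called (median log2 fold change 4.94). Gata6, the factor that starts the lineage, was at 275, 299.9 and 311 CPM in the 90-96hpi libraries, against 2.76, 3.08 and 0.884 CPM in the MII libraries (log2 fold change 7.03, SE 0.39, adjusted p = 2.69e-16), and Sox17 at 21.8, 30.5 and 24.4 CPM in the 90-96hpi libraries, against 0.212, 0.771 and 0.884 CPM in the MII libraries (log2 fold change 5.34, adjusted p = 3.08e-06). The receptor Pdgfra (5.59) and the endocytic receptor Lrp2 (6.95) rose. Gata4 was in both groups and not called (17.1 ± 4.63 CPM at 90-96hpi and 21.9 ± 9.46 CPM at MII), and Sox7 was low in both and not called (2.05 ± 0.832 CPM at 90-96hpi and 0.531 ± 0.919 CPM at MII). Of the matrix, Sparc was at 356, 206 and 175 CPM in the 90-96hpi libraries, against 3.5, 2.2 and 1.11 CPM in the MII libraries (log2 fold change 6.74, adjusted p = 1.59e-14), and the collagen chain Col4a1 (4.98) and the laminin chains Lama1 (4.02) and Lamc1 (2.03) were higher. The laminin chain Lamb1 was lower (179 ± 21.7 CPM at 90-96hpi and 901 ± 80.9 CPM at MII; log2 fold change -2.33, adjusted p = 2.94e-15). Leaving out MII replicate 1 gave a log2 fold change of 7.28 for Pdgfra. The log2 fold change without MII replicate 2 was 5.70 for Lama1.

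Genes of the 2-cell stage had largely come and gone between both ends. Of 24 tested members of repeated families such as Zscan4, Usp17l and Tdpoz, 15 were higher, 2 lower and 7 not called (median log2 fold change 3.49), and the sum was 166, 231 and 163 CPM in the 90-96hpi libraries, against 92.2, 107 and 101 CPM in the MII libraries. The level in between was far higher, with a mean sum of 2849 CPM at 18-24hpi. Of the 15 higher members 12 were highest in embryo replicate 2, and without that library 5 members were higher. In a fit of the 6 libraries alone 4 were higher. Zscan4c, higher here, changed sign to -0.92 without embryo replicate 2. Members of these families are near-identical copies, and their single values are uncertain.

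**Figure D3:**
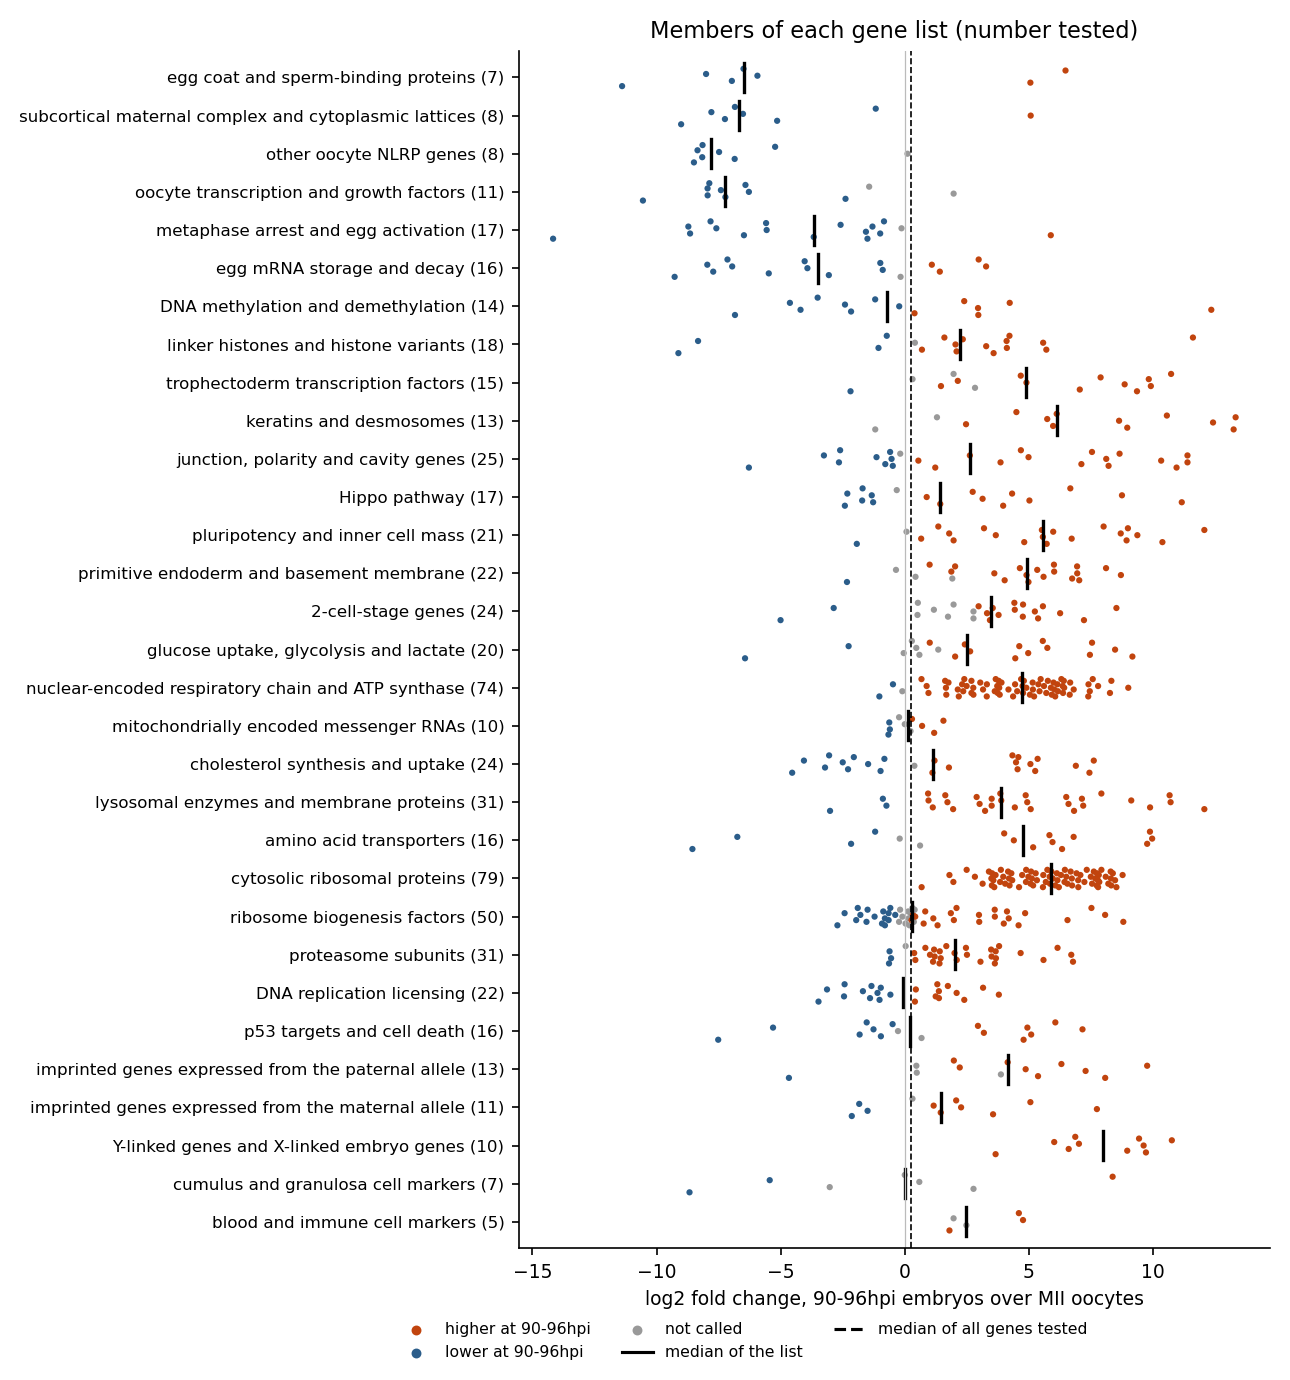
Log2 fold change (90-96hpi embryos over MII oocytes, horizontal axis) of every tested member of 31 gene lists, 1 row a list with the number tested in brackets. Orange points were higher, blue lower and grey not called, black bars are list medians and the dashed line is the median of all genes tested. The medians of the egg lists lie left of the dashed line and those of the blastocyst lists, cytosolic ribosomal proteins and lysosomal genes right of it.

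Genes with no read in a group have fitted fold changes that are not measured values. With such genes set at the bound that the floor of 3 reads per library gives, the median of all genes tested was 0.04 in place of 0.27. The list medians then became 1.66 for 2-cell genes, 6.74 for genes of the sex chromosomes, 4.33 for primitive endoderm, 5.90 for keratins and desmosomes, 5.52 for pluripotency and 0.04 for blood and immune genes, and the medians of the other lists did not move.

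Genes of glucose use were more often higher than lower. Eggs rely on pyruvate, and blastocysts take up glucose. Of 20 genes 13 were higher, 2 lower and 5 not called (median log2 fold change 2.53). These shares were 65.0% and 10.0%, beside 42.6% and 38.4% of all genes. The glucose transporter Slc2a3 was at 273, 218 and 222 CPM in the 90-96hpi libraries, against 0.212, 0.771 and 0.221 CPM in the MII libraries (log2 fold change 9.17, SE 0.36, adjusted p = 1.46e-22), while Slc2a1 was not called (16.04 ± 5.29 CPM at 90-96hpi and 16.5 ± 2.8 CPM at MII; adjusted p = 0.922). RNA of the lactate dehydrogenase subunits moved in opposite directions. Ldhb was at 4.88, 20.95 and 27.8 CPM in the 90-96hpi libraries, against 1526, 1582 and 1531 CPM in the MII libraries (log2 fold change -6.44, SE 0.42, adjusted p = 4.17e-12). Ldha was at 54.1, 37.8 and 37.9 CPM in the 90-96hpi libraries, against 0, 0.22 and 0.111 CPM in the MII libraries (adjusted p = 3.4e-14). In CPM, the gain of Ldha was far smaller than the loss of Ldhb, and protein was not measured. Aldoa (7.46), Hk2 (5.56) and Gapdh (4.61), enzymes of glycolysis, rose. The carrier Slc16a7 was the other lower member, and that call was lost without MII replicate 2. Without MII replicate 2, the log2 fold change was 10.12 for Slc2a3.

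Respiratory chain transcripts of the nucleus rose and those of the mitochondrion did not follow. Of 74 nuclear-encoded subunits 71 were higher, 2 lower and 1 not called (median log2 fold change 4.72), with a sum of 28580, 27750 and 26800 CPM in the 90-96hpi libraries, against 3948, 4303 and 3949 CPM in the MII libraries. Examples were the ATP synthase subunit Atp5j (640.2 ± 61.5 CPM at 90-96hpi and 2.06 ± 1.23 CPM at MII; log2 fold change 8.27, adjusted p = 1.11e-25) and the oxidase subunit Cox4i1 (1205 ± 134 CPM at 90-96hpi and 15.2 ± 2.74 CPM at MII; log2 fold change 6.31, adjusted p = 1.43e-27), against Sdha, a subunit of complex II, which fell (107 ± 25.9 CPM at 90-96hpi and 218 ± 32.5 CPM at MII; log2 fold change -1.02, adjusted p = 2.46e-07). The 10 tested mitochondrially encoded transcripts had a median of 0.12, with 4 higher, 3 lower and 3 not called (40.0% and 30.0%, beside 42.6% and 38.4% of all genes). Their sum was 12670, 15500 and 15020 CPM in the 90-96hpi libraries, against 12730, 13890 and 15320 CPM in the MII libraries. With total count scaling none of the 10 was lower. mt-Nd1 had a mean of 2697 ± 60.5 CPM at 90-96hpi and 2697 ± 336 CPM at MII (log2 fold change 0.00). mt-Nd6, the one encoded on the other strand, was higher (1398 ± 371 CPM at 90-96hpi and 475 ± 34.6 CPM at MII; log2 fold change 1.56, adjusted p = 2.71e-09).

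Cholesterol synthesis did not move as a unit. Of 24 genes 13 were higher, 10 lower and 1 not called (median log2 fold change 1.16). These shares were 54.2% and 41.7%, beside 42.6% and 38.4% of all genes. The list's sum was lower in embryos, at 761, 578.5 and 737 CPM, against 1674, 1834 and 1852 CPM in the MII libraries. The sterol sensor Insig1 (21.3, 27.2 and 30.97 CPM in embryos and 426, 464 and 439 CPM in oocytes; log2 fold change -4.06, SE 0.15, adjusted p = 3.21e-23), the early enzyme Hmgcs1 (79.5 ± 20.7 CPM at 90-96hpi and 449.5 ± 40.3 CPM at MII; log2 fold change -2.50, adjusted p = 9.17e-18) and the late desaturase Sc5d (-4.54) were lower. The late isomerase Ebp (145, 82.4 and 117 CPM in embryos and 1.27, 5.61 and 2.1 CPM in oocytes; log2 fold change 5.26, SE 0.36, adjusted p = 5.76e-15) and the kinase Pmvk (7.44) were higher. Like 80.2% of all genes tested, Insig1 and Ebp did not overlap between groups. Leaving out MII replicate 2 gave a log2 fold change of 6.19 for Ebp.

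The promoters of Insig1 and Ebp are printed as a pair from this pathway with opposite changes and the same box, CCAAT. This box was in 15 of 17 matched cholesterol promoters (88.2%), beside 37.9% of the 27025 promoters read and 39.3% of matched genes tested. Of these 15 promoters, 7 belonged to genes that were higher, 7 to genes that were lower and 1 to a gene not called. Over the lists the share ran from 0.0% (egg coat) to 91.7% (metaphase arrest), with 80.0% for 2-cell genes, so it was not particular to this pathway. The Insig1 window (chr5:28071162-28071461, plus strand) holds 1 CCAAT and 1 CACGTG, and the Ebp window (chrX:8193463-8193762, minus strand) 2 CCAAT.
Insig1: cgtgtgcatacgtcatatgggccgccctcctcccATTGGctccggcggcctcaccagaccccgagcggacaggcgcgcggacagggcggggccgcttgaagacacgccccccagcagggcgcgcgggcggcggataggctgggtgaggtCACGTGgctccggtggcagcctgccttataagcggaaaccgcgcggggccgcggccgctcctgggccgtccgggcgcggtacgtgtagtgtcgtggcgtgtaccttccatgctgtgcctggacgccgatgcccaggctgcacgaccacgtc
Ebp: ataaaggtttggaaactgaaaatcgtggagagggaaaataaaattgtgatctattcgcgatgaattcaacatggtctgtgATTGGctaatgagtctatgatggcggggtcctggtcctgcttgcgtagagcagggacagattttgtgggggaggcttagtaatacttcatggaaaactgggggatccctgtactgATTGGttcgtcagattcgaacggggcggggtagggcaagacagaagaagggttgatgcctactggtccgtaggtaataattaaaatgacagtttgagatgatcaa
As in the Hippo list, the box was in genes of both directions.

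Lysosomal genes rose nearly as a whole. Of 31, 28 were higher and 3 lower at 90-96hpi (median log2 fold change 3.89). The membrane tetraspanin Cd63 was at 2102, 1318 and 1293 CPM in the 90-96hpi libraries, against 0.743, 6.83 and 0.884 CPM in the MII libraries (log2 fold change 9.13, SE 0.58, adjusted p = 2.38e-12). The glycosidase Hexa (155, 89.2 and 101 CPM in embryos and 0, 0.33 and 0 CPM in oocytes) had at most 3 oocyte reads in all. So did Tfeb, a transcription factor that drives lysosomal genes (70.7, 92.3 and 84.6 CPM in embryos and 0, 0.11 and 0 CPM in oocytes). The cholesterol exporter Npc1 was lower (51.04 ± 10.8 CPM at 90-96hpi and 412 ± 27.6 CPM at MII; log2 fold change -3.01, adjusted p = 3.43e-17), and with total count scaling it was the 1 member left lower. CACGTG was in 6 of 23 matched lysosomal promoters (26.1%), all 6 of genes that were higher, but 16 of the other 17 were higher too. The log2 fold change without MII replicate 2 was 11 for Cd63.

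Amino acid transporters changed in both directions. Of 16 transporters 10 were higher, 4 lower and 2 not called (median log2 fold change 4.78). These shares were 62.5% and 25.0%, beside 42.6% and 38.4% of all genes. The transporter sum was lower in embryos, at 767, 651 and 636 CPM, against 1182, 1158 and 1159 CPM in the MII libraries. Slc7a11, the cystine importer, was at 0.997, 0.672 and 1.14 CPM in the 90-96hpi libraries, against 355, 381 and 335 CPM in the MII libraries (log2 fold change -8.56, SE 0.29, adjusted p = 2.45e-24), and Slc6a9, the glycine carrier by which eggs hold cell volume, had a log2 fold change of -6.75. Slc38a4 (200.3, 149.9 and 157 CPM in embryos and 0.106, 0.44 and 0 CPM in oocytes; log2 fold change 9.77, adjusted p = 2.37e-09) and Slc6a14 (42.7, 49.3 and 46.8 CPM in embryos and 0, 0.11 and 0 CPM in oocytes) came on, the second from at most 3 oocyte reads. Slc38a4 had at most 3 oocyte reads left without MII replicate 2, so no fold is given there.

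Ribosomal protein genes changed as a block. All 79 tested cytosolic ribosomal protein genes were higher at 90-96hpi, beside 42.6% of all genes (median log2 fold change 5.91), and their sum was 82060, 84100 and 81850 CPM in the 90-96hpi libraries, against 3501, 3908 and 3317 CPM in the MII libraries. Rpl3 was at 1427, 888 and 1061 CPM in the 90-96hpi libraries, against 0.637, 8.7 and 1.44 CPM in the MII libraries (log2 fold change 8.30, SE 0.47, adjusted p = 2.51e-13) and Rps19 at 1249, 1361 and 1302 CPM in the 90-96hpi libraries, against 1.91, 7.93 and 2.43 CPM in the MII libraries (log2 fold change 8.32, adjusted p = 1.37e-14). The smallest change was that of Rps15a (825 ± 70.4 CPM at 90-96hpi and 515 ± 17.8 CPM at MII; log2 fold change 0.68, adjusted p = 2.57e-07). Ribosomal protein genes have many processed pseudogenes that can take or give reads. Ribosome biogenesis factors were split, with 23 higher, 16 lower and 11 not called among 50 (median 0.29, close to that of all genes). These shares were 46.0% and 32.0%, beside 42.6% and 38.4% of all genes. The methyltransferase Nop2 (8.07) and Nhp2 (7.52) rose and Mphosph10 fell (-2.71). Of 31 proteasome subunits 27 were higher, 3 lower and 1 not called (median 2.00), with Psmb5 (6.78) and Psmb7 (6.71), both of the catalytic core, among the highest. None of its lower calls held with total count scaling. Leaving out MII replicate 2 gave a log2 fold change of 10.18 for Rpl3 and 9.33 for Rps19. Nop2 had at most 3 oocyte reads left without MII replicate 1, so no fold is given there.

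DNA replication licensing genes divided evenly, 11 higher and 11 lower of 22 (median log2 fold change -0.09), beside 42.6% and 38.4% of all genes. The helicase subunits Mcm5 (147 ± 21.9 CPM at 90-96hpi and 10.6 ± 2.32 CPM at MII; log2 fold change 3.79, adjusted p = 3.52e-18) and Mcm3 (3.15) were higher, and the origin recognition subunit Orc5 (80.9 ± 16.8 CPM at 90-96hpi and 899.5 ± 75.9 CPM at MII; log2 fold change -3.48, adjusted p = 5.83e-22) and the helicase cofactor Cdc45 (-2.43) lower. Of 16 p53 and cell death genes 7 were higher, 7 lower and 2 not called (43.75% each way; median 0.20). Trp53 itself was lower (60.4 ± 12.8 CPM at 90-96hpi and 175 ± 10.5 CPM at MII; log2 fold change -1.54, adjusted p = 3.53e-12) and so was its ligase Mdm2 (-1.82), while the p53 targets Cdkn1a (327, 270.1 and 281 CPM in embryos and 3.5, 5.28 and 4.31 CPM in oocytes; log2 fold change 6.07, adjusted p = 6.73e-23) and Bax (4.79) were higher. Of the survival factors, Mcl1 was higher (119 ± 16.4 CPM at 90-96hpi and 3.48 ± 0.392 CPM at MII; log2 fold change 5.09, adjusted p = 7.05e-20) and Bcl2l10, an oocyte member of the family, lower (30.6 ± 29.3 CPM at 90-96hpi and 5606 ± 266 CPM at MII; log2 fold change -7.52, adjusted p = 1.88e-07). Bcl2l1, slightly lower, changed sign to 0.0271 with total count scaling. Without 90-96hpi replicate 3, the log2 fold change was -8.49 for Bcl2l10.

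Imprinted genes of either parental allele were more often higher than lower. Of 13 tested genes that mouse tissues express from the paternal copy 9 were higher, 1 lower and 3 not called (median log2 fold change 4.15). These shares were 69.2% and 7.69%, beside 42.6% and 38.4% of all genes. The paternal list's sum was lower in embryos, at 577, 533 and 561 CPM, against 654, 701 and 801 CPM in the MII libraries. Of 11 tested maternal ones 7 were higher, 3 lower and 1 not called (63.6% and 27.3%; median 1.45). The maternal list's sum was higher in embryos, at 454.5, 504 and 456 CPM, against 281, 260 and 266 CPM in the MII libraries. Igf2, a fetal growth factor, was at 11.3, 19.3 and 14.3 CPM in the 90-96hpi libraries, against 0.849, 1.21 and 0.442 CPM in the MII libraries (log2 fold change 4.15, SE 0.71, adjusted p = 2.72e-06). Mest was lower (26.1 ± 12.7 CPM at 90-96hpi and 664 ± 77.4 CPM at MII; log2 fold change -4.67, adjusted p = 8.17e-13), as was the growth adaptor Grb10 (-2.14). H19, the non-coding neighbour of Igf2, was not tested and had 0, 8.74 and 0.911 CPM in embryos and no read in any oocyte library, nearly all in embryo replicate 2.

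RNA from the Y chromosome appeared with the embryo. The egg has no Y chromosome, and Y-linked Eif2s3y was at 93.6, 85.7 and 76.2 CPM in the 90-96hpi libraries, against 0, 0.11 and 0 CPM in the MII libraries (adjusted p = 7.93e-14), with 1 read in all oocyte libraries. Xist, the RNA that silences an X chromosome in female embryos, was at 157, 135 and 199 CPM in the 90-96hpi libraries, against 0, 0.55 and 0 CPM in the MII libraries (log2 fold change 9.72, SE 0.64, adjusted p = 7.37e-14). Rhox5, an X-linked homeobox gene of extraembryonic cells, was at 116, 27.2 and 59.4 CPM in the 90-96hpi libraries, against 0, 0.22 and 0 CPM in the MII libraries. All 10 tested genes of the list, 6 Y-linked and 4 X-linked, were higher, with a sum of 413, 320.2 and 399 CPM in the 90-96hpi libraries, against 0.849, 1.32 and 0.332 CPM in the MII libraries. Y-linked RNA and Xist were both present in each of the 3 embryo libraries. Xist had at most 3 oocyte reads left without MII replicate 2, so no fold is given there.

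Markers of other cells were low, except the granulosa cell marker Cyp19a1 in MII oocytes. Of 7 tested cumulus and granulosa genes 1 was higher, 2 lower and 4 not called, and the sum was 8.75, 7.06 and 8.31 CPM in the 90-96hpi libraries, against 137, 146 and 154 CPM in the MII libraries. The oocyte sum was nearly all Cyp19a1, aromatase, at 0, 0.336 and 0.683 CPM at 90-96hpi, against 134, 143 and 152 CPM at MII (log2 fold change -8.67, adjusted p = 1.52e-21), while Ptx3, Amh and Lhcgr had no read in any of the 6 libraries. The second lower marker, Ptgs2, lost its call without MII replicate 3. The higher one, Amhr2, the receptor of anti-Müllerian hormone, was at 5.76, 3.36 and 3.64 CPM in the 90-96hpi libraries, against no read in any MII library (adjusted p = 2.08e-10). The 2 tested sperm genes were not called, and Tnp1, Smcp, Gapdhs and Crisp2 had no reads. Of 5 blood and immune genes 3 were higher, none lower and 2 not called, with a sum of 17.6, 11.5 and 6.95 CPM in the 90-96hpi libraries, against 4.67, 3.63 and 3.2 CPM in the MII libraries, mostly Cd68 (16.5, 9.97 and 6.26 CPM at 90-96hpi, against 2.65, 3.52 and 3.2 CPM at MII). The other higher ones were Hba-a1 (0.665, 0.112 and 0.114 CPM at 90-96hpi, against no read in any MII library), whose call was lost without embryo replicate 1, and Cd52 (0.111, 0.672 and 0.228 CPM at 90-96hpi, against no read in any MII library), whose call was lost without embryo replicate 2. In a fit of the 6 libraries alone 1 of these was higher. The part of such cells in the other results was not tested. Cyp19a1 had at most 3 embryo reads left without 90-96hpi replicate 3, so no fold is given there.

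The embryos collected in between, 8 labelling windows from 0-6hpi to 70-76hpi of 3 libraries each, show when both sides of the comparison parted. The midpoint between egg and 90-96hpi was taken on the log2 of the mean CPM, with a small constant added. For each gene at least 4-fold different, the window was found from which its level stayed past that midpoint. A log2 midpoint lies below the midpoint in CPM, so rises are dated earlier and falls later than by CPM. Of the 4456 lower genes, 15.1% passed at 24-30hpi, 31.9% at 30-36hpi and 31.0% at 48-54hpi, and 8.62% at 70-76hpi. Of the 5435 higher genes, 14.9% passed at 18-24hpi, 15.5% at 24-30hpi, 11.6% at 30-36hpi, 18.1% at 48-54hpi, 19.4% at 70-76hpi and 13.5% at 90-96hpi. For 30.4% of the higher genes and 19.9% of the lower genes, a window in between was at least 2-fold above both ends.

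**Figure D4:**
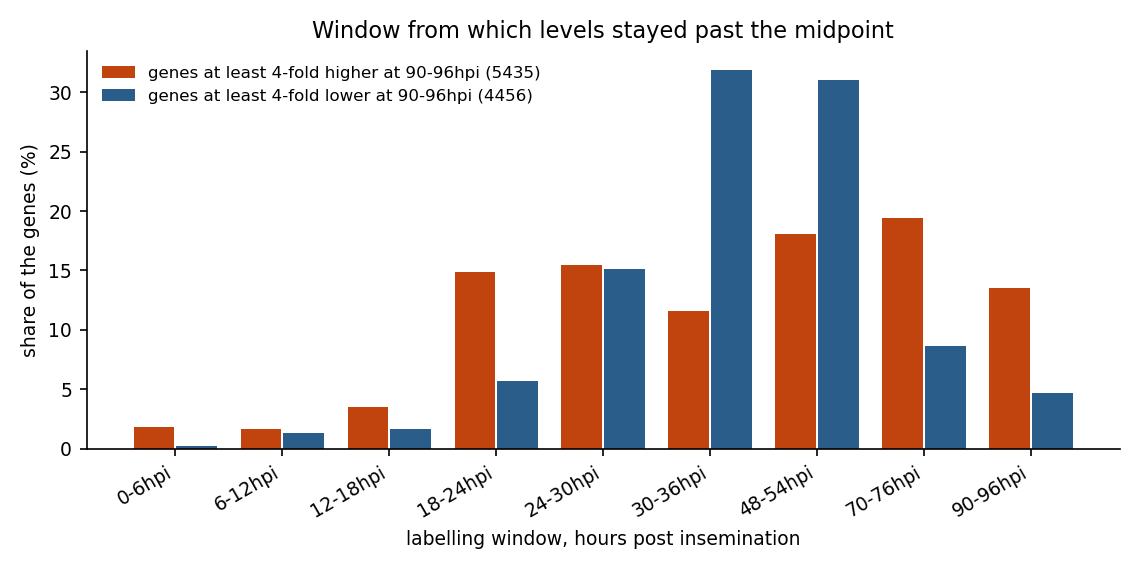
Share of the genes at least 4-fold higher (orange, 5435 genes) or lower (blue, 4456 genes) at 90-96hpi whose log2 mean CPM passed the midpoint between MII and 90-96hpi, and stayed past it, from the labelling window on the horizontal axis. The lower genes concentrate at 30-36hpi (31.9%) and 48-54hpi (31.0%), and the higher genes spread from 18-24hpi (14.9%) to 90-96hpi (13.5%).

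The groups of genes kept different clocks. Oocyte growth and transcription factors summed to 10630 CPM at MII, 8774 at 18-24hpi, 4004 at 24-30hpi, 1185 at 30-36hpi and 81.5 at 48-54hpi. Within that list Gdf9 fell in CPM before the sum did, with means of 5091 CPM at MII, 3116 at 0-6hpi and 1221 at 6-12hpi, where the sum was 8866 CPM. It still averaged 337 CPM at 30-36hpi. By the log2 midpoint it was not early, staying past it from 48-54hpi, the window of 6 of the 9 lower members. Ribosomal protein genes summed to 3801 CPM at 12-18hpi, 7104 at 18-24hpi, 23270 at 30-36hpi, 70920 at 48-54hpi and 82670 at 90-96hpi. Nuclear respiratory genes came later, with 5616 CPM at 30-36hpi, 13570 at 48-54hpi and 27710 at 90-96hpi. The mitochondrially encoded sum was 13980 CPM at MII, 8173 at 0-6hpi, 17240 at 18-24hpi, 8124 at 48-54hpi and 14400 at 90-96hpi, so the sum was lower at 0-6hpi and at 48-54hpi than at either end. Keratins and desmosomes came later still, with 228 CPM at 48-54hpi, 1187 at 70-76hpi and 6452 at 90-96hpi, and 6 of their 11 higher members stayed past the midpoint from 70-76hpi.

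**Figure D5:**
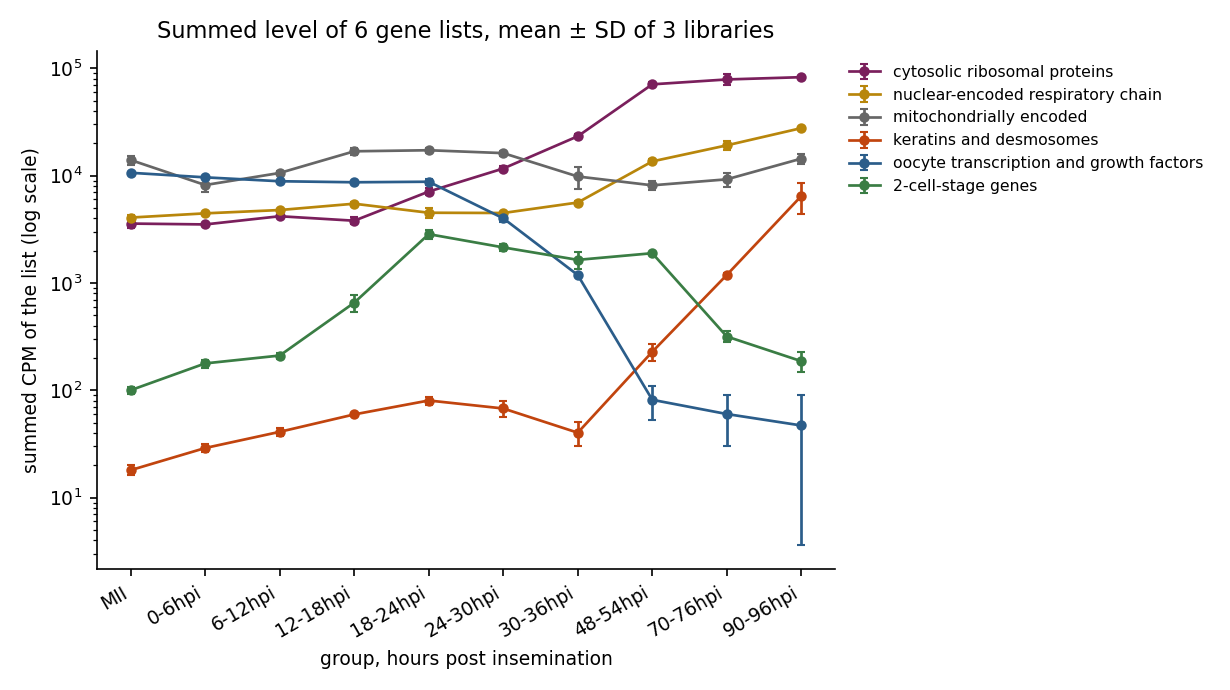
Mean summed CPM (log scale) of selected gene lists in MII oocytes and the 9 labelling windows, with bars of 1 SD over 3 libraries. Oocyte factors fall between 18-24hpi and 48-54hpi, ribosomal proteins climb from 12-18hpi to 48-54hpi, keratins and desmosomes climb from 48-54hpi, and mitochondrially encoded RNA ends near its starting level.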

How the data were processed

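Per the labels' protocols, polyadenylated RNA was alkylated, primed with oligo-dT and made into libraries by a modified Smart-seq2 method. Per the file headers, the deposited values are read counts per gene, with gene length beside them. The deposited column of 90-96hpi replicate 3 was handled like an estimated count column and rounded, since 1 value, in the incomplete last record (Nyx, left out), is a fraction. The submitters' processing notes name Trim Galore 0.6.10, STAR 2.7.10a, SAMtools 1.12 and the build mm10 (GRCm38). The counter, its strand setting and whether all reads or only T-to-C converted reads were counted are not given in the sources used here. The 31 other samples were not used.

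Genes were kept by filterByExpr (minimum count 10, minimum total 15), which left 16234 genes over the 30 libraries of the labelling windows. These were scaled by TMM and tested with edgeR 4.0.16 in R 4.3.3 (glmQLFit with robust set, glmQLFTest, two-sided) with group as the one term, all windows sharing the estimate of spread. P-values were adjusted by Benjamini-Hochberg over all genes tested, at 0.05. The SE is the log2 fold change over the square root of F. The script was tested on simulated data. A fold against a group without reads is a bound at a floor of 3 reads per library (0.327 CPM for MII, 0.337 CPM for 90-96hpi), for counting error only. No fold is given where the lower group had 1 to 3 reads.

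The genes and lists were chosen with earlier results of these data known, so their counts are descriptions beside those of all genes. Named genes were the 12 highest and 12 lowest log2 fold changes among called genes with at least 20 CPM, no overlap and over 10 reads in the lower group; the 10 highest means with at most 10 reads in the lower group, each way; the 10 highest means in each group; and members of the lists. Alternatives were DESeq2 1.42.0, other scalings, no filter, a replicate block, the 6 libraries alone, a minimum fold (glmTreat) and each library left out. Chromosomes and promoters were matched by symbol to RefSeq tables on GRCm38.p6. A chromosome was found for 15029 (92.6%) of the tested genes. A promoter was found for 11966 of the 16234 tested genes, with promoters of chromosome 18 left out. Figures used matplotlib 3.10.9.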

Additional observations from a re-analysis of the deposited data

How the results depend on the processing

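The overall counts stayed within 1.5 times of those reported. DESeq2 called 6893 genes higher and 6250 lower, total count scaling 7753 and 5413, the absence of a low-count filter 7466 and 6204, the 6 libraries alone 5972 and 5446, and a test against a minimum 2-fold change 5962 and 5150. Leaving out 1 library gave 6773 to 7040 higher and 5936 to 6098 lower genes. The replicate block gave 6883 higher and 6199 lower genes. Deviations of same-numbered libraries from their group means correlated at -0.003, -0.021 and 0.036, beside -0.027 to 0.032 for differently numbered ones. Whether the numbers pair the samples cannot be told from 3 libraries a group. Of 703 named genes and list members, 622 kept their direction and call under every alternative that gave a value, and 81 did not under at least 1.

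Total count scaling changed these list counts: other NLRP genes higher 1, metaphase arrest genes higher 2, junction genes lower 5, respiratory chain genes lower 1, mitochondrially encoded genes lower 0, lysosomal genes lower 1 and proteasome genes lower 0. It also turned the log2 fold changes of Ccnb2 (0.39), Dppa3 (0.30), Tjp1 (0.00827), Prkci (0.0546), Ndufa10 (0.41), Uqcrc2 (0.0398), Nop58 (0.14), Gnl3 (0.30), Noc4l (0.41) and Bcl2l1 (0.0271) positive. Without the filter 1 keratin and desmosome gene was lower and 3 sperm genes higher. The 6 libraries alone gave 4 higher 2-cell genes, 1 lower glycolysis gene, 1 lower cumulus gene and 1 higher blood gene. Leaving out 1 library gave 5 to 16 higher 2-cell genes, 1 to 2 lower primitive endoderm, glycolysis and cumulus genes and 2 to 4 higher sperm genes, and moved the log2 fold change of Zscan4c between -0.92 (without 90-96hpi replicate 2) and 4.08 (without MII replicate 2). The cause was not tested, other than that fewer libraries change which genes pass the filter. Depth limits genes at a few reads per library.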

Other observations

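Some genes had like levels in egg and 90-96hpi embryo and yet changed in between. Of 623 genes with at least 20 CPM in the higher group that were not called, 49 were at least 4-fold above both ends in some window and 154 at least 4-fold below both. Those called neither higher nor lower at the ends include Tmem50b, with 87.6 CPM at MII, 518 at 30-36hpi, 1668 at 48-54hpi and 110.1 at 90-96hpi. Mat2a, which makes S-adenosylmethionine, averaged 259.6 CPM at MII, 2768 at 48-54hpi and 219.6 at 90-96hpi. Uap1, which makes UDP-N-acetylglucosamine, averaged 60.4, 1048 and 70.1 CPM in those windows. In the other direction the mitochondrial ribosomal protein gene Mrps5 averaged 52.4 CPM at MII, 1.22 at 24-30hpi and 58.9 at 90-96hpi. The biliverdin reductase Blvra averaged 58.7 CPM at MII, 1.15 at 30-36hpi and 76.7 at 90-96hpi, and Prkaca, the catalytic subunit of protein kinase A, 23.2 at MII, 0.319 at 48-54hpi and 19.4 at 90-96hpi. These genes were chosen after their values were seen from the 6 with the widest excess in each direction, and were not tested between windows.

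Klf17, a zinc-finger transcription factor that the series studied by knockout, was among the egg genes that left, with 1.66, 2.91 and 7.86 CPM in 90-96hpi embryos, against 653, 746 and 773 CPM in MII oocytes. By chromosome, the share of tested genes at least 4-fold higher ran between 25.6% on chromosome 13 and 42.0% on chromosomes 7 and 19, was 35.2% on X, and 7 of 8 tested Y genes were higher. These shares were not tested.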
